A study of Mus musculus with 6 samples.

Results

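Cell adhesion genes were examined for changes in open chromatin after loss of C/EBPα and C/EBPβ in mouse cells transformed by MLL-ENL. The gene set held 38 members: 18 integrin subunits, P-selectin and its ligand, 8 immunoglobulin-superfamily adhesion molecules, 3 cadherins, Cd34 and Cd44, the integrin-associated proteins Cd9 and Cd47, and the linkers Fermt3, Tln1 and Vcl. A region belonged to a member when it overlapped the GENCODE M21 gene body, extended by 25 kb on each side, on the mouse build mm10. A region in several windows was given to the member with the nearest transcription start site. By this rule 64 of the 10016 regions in the authors' deposited table lay at 26 of the 38 members.

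Integrins are transmembrane receptors made of an α and a β subunit, and the pair determines which ligand is bound. The β2 integrins of leukocytes bind ICAMs and complement fragments, whereas β1, β3 and β5 integrins bind matrix proteins such as fibronectin, laminin and vitronectin. Talin and kindlin bind the β tail inside the cell and switch integrins to their active form. Selectins and their glycoprotein ligands mediate rolling of blood cells on vessel walls, and cadherins and junctional immunoglobulin proteins join like cells to each other. In blood progenitors these molecules anchor the cells in marrow or fetal liver and mark stages of myeloid differentiation.

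The cells came from fetal livers of Cebpa fl/fl Cebpb fl/fl mice and were immortalised with an MLL-ENL retrovirus, G418 selection and the expansion of single colonies. WT cells kept both Cebpa and Cebpb. In dKO cells both genes had been removed with the cell-permeable recombinase TAT-Cre. The dKO cells carried a GFP vector, while the WT labels name no vector. Only rare dKO clones survived the deletion, so genotype, vector and clonal origin cannot be told apart in these data. The study reports strong expression of C/EBPε protein in every surviving dKO clone, so these cells were not free of C/EBP proteins. All cells grew in IMDM with 10% FCS and IL-3. ATAC-seq, in which the Tn5 transposase tags accessible DNA, was done with 2 libraries per group from 50000 sorted cells each. Per the labels the mean depth was 25000000 reads a library. The remaining group, dKO cells that express the rat C/EBPβ isoform LAP*, was not analysed here.

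Each level given below is the authors' mean over the 2 libraries of a group, on a log2 scale of normalised reads in the region, and each change is dKO minus WT. The table has no value per library, so the means carry no replicate error and no test was made. The table lists only regions that passed the authors' corrected P of 0.05. Intervals given with a change are 95% exact intervals of the ratio of read numbers estimated from the levels, and they cover counting error only. A level can reflect accessibility per cell or the share of cells with an open site, and these cannot be told apart. The labelled cell type could not be checked against marker expression, because the table holds no RNA values. At the deleted genes themselves the listed regions had the lowest or a much lower level in dKO. The Cebpa region went from 9.99 to -0.15, a Cebpb region in the coding exon from 7.38 to -0.15 and a Cebpb region at the promoter from 8.60 to 3.37, which is above 1.43, the level of 3 reads per library, so reads were still counted there. Where DNA was removed no reads can arise, so these values bear on the genotype as well as on accessibility.

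Accessibility was higher in dKO than in WT at 55 of the 64 regions at adhesion genes, which is 85.9%. Over all listed regions the share was 60.3%. The other 9 regions were lower, beside a share of 39.7% over all listed regions. A change of at least 2-fold upward was listed for 43 regions (67.2%, against 49.6% over all listed regions), and one of at least 2-fold downward for 8 regions (12.5%, against 35.9%). The median change was 1.34 with quartiles of 0.86 and 1.89, where the median over all listed regions was 0.98. When that median was subtracted, 44 regions stayed above 0 and 20 lay below it. The 11 regions that turned were small rises at Itgb2, Itgb5, Itgam, Esam, F11r, Jam3, Tln1 and Vcl.

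The members differed in how many regions they had. Of the 26 members with regions, 17 had only higher regions, 4 had only lower regions (Itga1, Itga3, Pecam1 and Cdh17) and 5 had both (Itga5, Itga9, Jam3, Cd47 and Vcl). Higher regions alone were thus found at 65.4% of the members with regions and lower ones alone at 15.4%, beside 53.2% and 35.3% of all protein-coding genes with regions. Itgb2 had 8 regions, Alcam 7, Itgb5 6 and Cd47 5, and 25 of these 26 regions were higher. At the other 22 members 30 of 38 regions were higher, which is 78.9%. No region was listed for Itga2, Itga4, Itgal, Itgb1, Itgb8, Selp, Icam1, Icam2, Vcam1, Cdh2, Cd44 or Fermt3, and for these 12 genes no change can be given in either direction. A window with 1 or more listed regions was found for 68.4% of the members and for 35.2% of the 21755 protein-coding genes of the annotation. The members are longer, with a median gene length of 56.4 kb against 17.4 kb, and the shares were not matched for length.

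**Figure D1:**
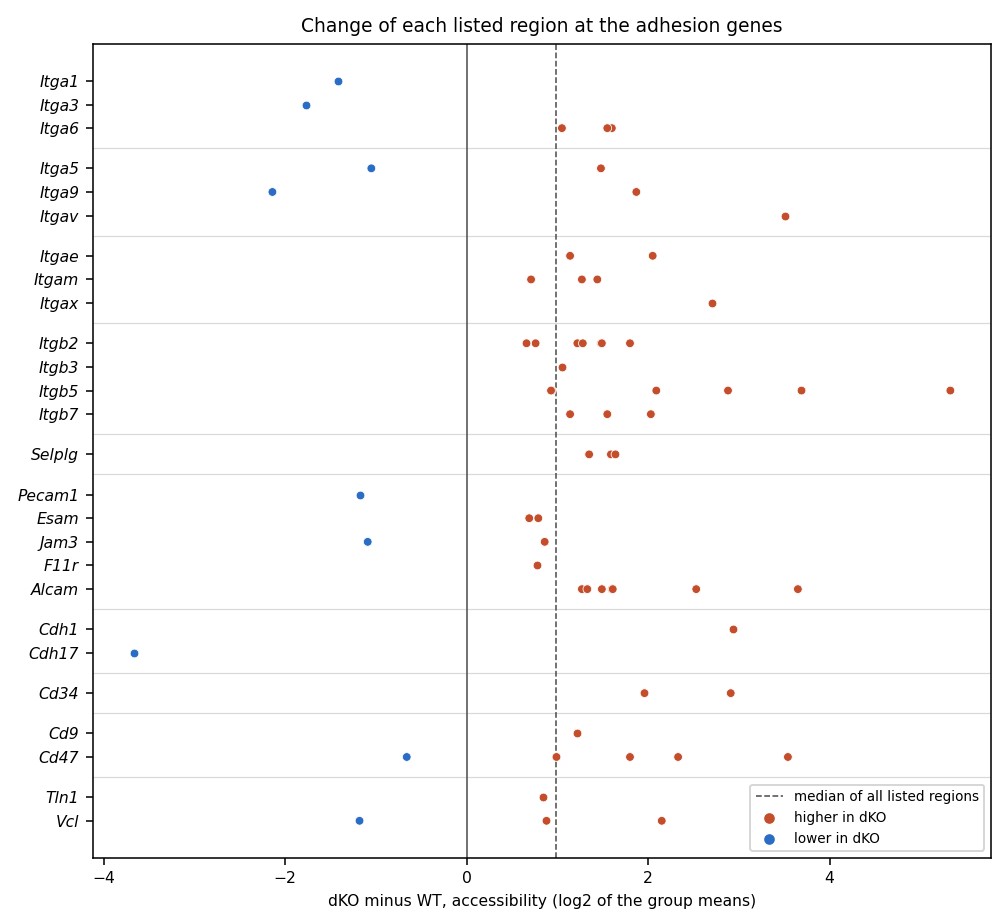
Change in accessibility (dKO minus WT, log2 of the group means) of each of the 64 listed regions, 1 point per region, by gene and grouped by role. The dashed line is the median of all 10016 listed regions (0.98). Most points lie right of 0, 9 lie left of it, and 11 of the higher points lie between 0 and the dashed line, where subtracting that median turns the direction.

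The chromosomes that carry the members differed in their share of higher regions. Itgb2 is on chromosome 10, where 82.0% of all 767 listed regions were higher, and Itgb5, Alcam and Cd47 are on chromosome 16, where 73.0% of 463 were higher. Of the member regions, 8 of 8 on chromosome 10 and 17 of 18 on chromosome 16 were higher. The 26 member regions on both chromosomes are those of the 4 members with 5 or more regions, so leaving out either gives the same 38 regions. Away from both chromosomes 57.7% of all 8786 listed regions were higher, beside the 78.9% of those 38. Averaged over the 64 member regions, the share of higher regions on their own chromosomes was 64.9%. The part of these chromosome-wide shares in the members' count was not tested.

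**Figure D2:**
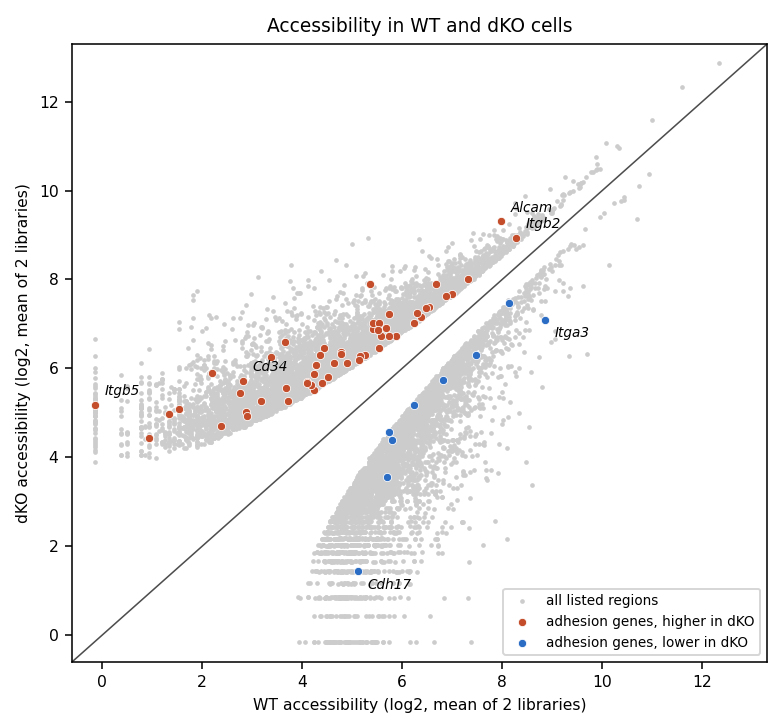
Level in WT (x axis) and in dKO (y axis), each the log2 mean of 2 libraries, for all 10016 listed regions (grey) and the 64 regions at adhesion genes (55 higher in red, 9 lower in blue). The empty band along the diagonal is the range of small changes that the table does not list. Itgb5 sits at the lowest WT level of -0.15 and Cdh17 at a dKO level of 1.44.

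The higher regions spanned a wide range of starting levels. Their WT levels ran from -0.15 to 8.27 with a median of 4.77, and their dKO levels from 4.44 to 9.31 with a median of 6.30. The 9 lower regions had WT levels of 5.11 to 8.86 and dKO levels of 1.44 to 7.48. Their median change of -1.18 was smaller in size than the -1.85 over all lower regions of the table, whereas the median of the higher regions, 1.49, was close to the 1.58 over all higher regions.

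Among the integrin β subunits all 18 listed regions were higher in dKO, at 4 of 6 genes, beside 60.3% of all listed regions. Of the 18, 8 were at Itgb2 on chromosome 10, where 82.0% of all listed regions were higher. A further 6 were at Itgb5 on chromosome 16, where 73.0% were higher. Itgb2 encodes CD18, the β chain shared by LFA-1, Mac-1 and the other leukocyte integrins. The region over its start site (chr10:77530068-77530471) rose from 5.74 to 7.22, a change of 1.48 (counting interval 1.17 to 1.79). The largest rise at Itgb2, 1.80, lay 7.90 kb upstream and the smallest, 0.66, 20.9 kb into the gene, where the level was already 8.27 in WT and reached 8.93 in dKO. That region has its centre in an intron and contains a whole coding exon of 96 bp. It had the highest density of reads of all the higher member regions, 94.5 normalised reads per 100 bp in dKO. The other regions at Itgb2 changed by between 0.76 and 1.49. The 0.66 and 0.76 regions are the ones that turn when the median of all listed regions is subtracted.

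The part of the Itgb2 start region that holds no annotated untranslated sequence is shown because this change is among the largest of the regions within 1 kb of a member start. It is given on the plus strand of GRCm38.p6, the assembly behind mm10. In this and the later stretches capitals mark matches to the consensus strings of C/EBP (TTACNNAA or TTGCNNAA), AP-1 (TGACTCA), PU.1 (GAGGAAGT) or RUNX (AACCACA), searched on both strands, and a stretch in lower case throughout held none of them.
Itgb2, chr10:77530068-77530251: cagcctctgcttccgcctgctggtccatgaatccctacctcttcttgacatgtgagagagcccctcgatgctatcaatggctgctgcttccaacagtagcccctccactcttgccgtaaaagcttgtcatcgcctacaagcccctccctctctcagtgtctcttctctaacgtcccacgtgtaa

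Past the start site, within the same region, lay 1 PU.1 string, shown with 10 bases on either side.
Itgb2, chr10:77530302-77530309: atgtcactcaACTTCCTCctgggcgctg

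Itgb5 encodes the β subunit that pairs with αv to bind vitronectin, and its 6 regions included the largest rise of all members. This region (chr16:33875801-33876118) went from -0.15, the lowest level in the table, to 5.18. The listed difference is 5.33, but the WT level stands for about 1 read in each library. Against a floor of 3 reads per library the rise was at least 13.4-fold. The region covers a whole coding exon: 250 of its 318 bases are coding, and it starts 1 base before that exon. Of the intronic regions, one rose by 3.69 (2.20 to 5.89), its neighbour within 1 kb by 2.09 (3.17 to 5.26) and one nearer to the start by 2.88 (3.38 to 6.26). The weakest changes, 0.94 (6.30 to 7.24) and 0.93 (5.54 to 6.47), were at an internal start site and downstream of the gene, over Umps, and both turn below 0 on subtraction of the overall median.

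The Itgb5 exon region is shown because it carries the largest rise. The 1 C/EBP string in it spans the end of the exon.
Itgb5, chr16:33875810-33876109: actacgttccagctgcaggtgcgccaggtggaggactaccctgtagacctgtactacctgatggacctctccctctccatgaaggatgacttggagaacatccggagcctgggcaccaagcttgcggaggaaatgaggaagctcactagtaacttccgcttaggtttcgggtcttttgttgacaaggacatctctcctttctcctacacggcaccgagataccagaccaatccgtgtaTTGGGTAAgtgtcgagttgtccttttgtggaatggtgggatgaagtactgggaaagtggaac

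Itgb7, whose product pairs with the α4 and αE chains in lymphocyte homing, had 3 higher regions. An intronic region 913 bp into the gene rose most, from 4.44 to 6.47 (change 2.03, interval 1.58 to 2.52). Another intronic region rose by 1.55 (4.77 to 6.32). The third, with 1.14 (5.15 to 6.29), covered the start site of the neighbouring gene Rarg. Itgb3, the β chain of the platelet fibrinogen receptor and of αvβ3, had a single region, 3.77 kb into the gene, that rose by 1.05 (5.25 to 6.30). The Itgb7 stretch below is from the region with its largest rise, which lies within 1 kb of the start.
Itgb7, chr15:102230882-102231181: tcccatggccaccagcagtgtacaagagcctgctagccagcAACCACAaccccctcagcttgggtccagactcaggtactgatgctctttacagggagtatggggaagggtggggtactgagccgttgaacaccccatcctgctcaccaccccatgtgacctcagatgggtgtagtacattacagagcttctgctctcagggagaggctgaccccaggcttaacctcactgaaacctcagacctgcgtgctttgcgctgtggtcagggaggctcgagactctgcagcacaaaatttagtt

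The leukocyte α subunits had 6 listed regions at 3 of 4 genes, all higher in dKO, beside 60.3% of all listed regions. Itgax encodes CD11c, a chain of complement receptor 4 that is used as a marker of dendritic cells and macrophages. Its only region lay over the start site and rose from 2.75 to 5.45, a change of 2.70 (interval 1.90 to 3.58) or 6.50-fold. Itgam encodes CD11b, the α chain of Mac-1 and a standard myeloid marker. It had a region 11.7 kb upstream with a change of 0.71 (7.31 to 8.02), one 3.87 kb upstream with 1.44 (4.18 to 5.62) and one in an intron with 1.27 (4.40 to 5.67). The 0.71 change at Itgam turns when the overall median is subtracted. The study reports reduced CD11b reactivity of dKO cells in flow cytometry, so the rises at Itgam do not stand for more CD11b. Itgae, which encodes the αE chain CD103, had regions 2.52 kb and 4.20 kb into the gene that rose by 1.14 (5.58 to 6.72) and 2.05 (2.89 to 4.94). No region was listed for Itgal, the α chain of LFA-1.

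The Itgax start region is shown up to its first transcribed base, because it had the largest change of the start-site regions at integrin genes. It holds 1 AP-1 string.
Itgax, chr7:128129334-128129546: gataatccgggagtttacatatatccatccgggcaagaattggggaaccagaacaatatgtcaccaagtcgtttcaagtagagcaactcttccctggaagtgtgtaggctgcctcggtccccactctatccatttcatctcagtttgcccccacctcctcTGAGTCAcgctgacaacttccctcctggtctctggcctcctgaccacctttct

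The matrix-binding and RGD-binding α subunits each had 3 higher and 2 lower regions. With 60% of only 5 regions higher, each group was near the 60.3% of all listed regions. Itga1 encodes a collagen-binding α subunit and was the only member with a lower region over its own start site. This region (chr13:115101388-115102100) also covers the start of Gm49395. It fell from 5.80 to 4.38, a change of -1.42 (interval -1.95 to -0.93). Itga3, a laminin-binding chain, had 1 region, which fell from 8.86 to 7.09 (-1.77), but that region covers the start site of Pdk2 and lies downstream of Itga3. Itga6, the α chain of laminin receptors on epithelia and on stem cells, had 3 higher regions, with 1.60 (4.09 to 5.69) and 1.55 (3.71 to 5.26) upstream of the gene and 1.05 (5.13 to 6.18) in an intron. Itga1 lies on the minus strand, and the stretch of its region without untranslated sequence, printed here on the plus strand, lies inside the gene. It does not hold the start site and includes a coding exon of 61 bp.
Itga1, chr13:115101388-115101531: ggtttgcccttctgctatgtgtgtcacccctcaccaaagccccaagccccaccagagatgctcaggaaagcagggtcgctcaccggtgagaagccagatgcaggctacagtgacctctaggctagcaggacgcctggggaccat

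Of the α subunits that recognise fibronectin or RGD motifs, Itgav had the largest rise. αv pairs with β3, β5 and other β chains in vitronectin receptors. Its region lay 9.46 kb upstream of the gene and rose from 0.93 to 4.44, a change of 3.51 from about 4 reads over both WT libraries (interval 2.14 to 5.52). Itga5, the α chain of the main fibronectin receptor, had a region 3.87 kb upstream that rose from 5.41 to 6.89 (1.48) and a region over the start site of Zfp385a that fell from 6.23 to 5.18 (-1.05). Itga9 had an intronic region that rose by 1.87 (3.68 to 5.55) and one downstream of the gene that fell by 2.14 (5.70 to 3.56). At Itga5 and Itga9, then, the region inside or upstream of the gene was higher and the one downstream was lower. Itga4, the α chain of VLA-4, had no listed region.

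The upstream region of Itgav held a pair of AP-1 strings, and so did that of Itga5. They are shown because both regions rose and neither holds another of the searched strings.
Itgav, chr2:83714967-83714973: gcccgggtggTGACTCAttccgctgga
Itgav, chr2:83715007-83715013: atttacttgcTGACTCAggaagacatg
Itga5, chr15:103370645-103370651: gtcactgcccTGACTCAggtctctgtt
Itga5, chr15:103370689-103370695: ccatcattcgTGAGTCAtcacttacca

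Selplg encodes PSGL-1, the ligand through which leukocytes bind P-selectin. Its 3 regions rose by 1.59 (4.09 to 5.68), by 1.35 (5.52 to 6.87) and by 1.64 (4.24 to 5.88). All of them lay 22.4 kb to 34.0 kb from its 5′ end on the downstream side, nearer to the start sites of Tmem119 or Gm19931 than to its own. P-selectin itself, Selp, had no listed region.

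Alcam had 7 of the 13 regions in the immunoglobulin superfamily. It encodes CD166, a homophilic adhesion molecule that also binds CD6, and all of its regions were higher. The region at its promoter (chr16:52452830-52453576) already had a high level in WT and went from 7.98 to 9.31, a change of 1.33 with the narrowest counting interval among its regions (1.19 to 1.48). Of the 6 other regions 5 changed by more than this and 1 by less. One in an intron, 15.6 kb into the gene, rose from 1.33 to 4.98 (3.65, interval 2.35 to 5.04, from about 6 reads over both WT libraries). One 16.3 kb upstream rose from 5.36 to 7.89 (2.53, interval 2.21 to 2.87), and a neighbour 14.5 kb upstream rose by 1.61. The remaining regions, 2 in an intron 35.4 and 36.0 kb into the gene and 1 over an exon near an internal start site, rose by 1.27 to 1.60.

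The strongest upstream Alcam region held a pair of AP-1 strings, and an intronic one a further AP-1 string.
Alcam, chr16:52470282-52470288: agTGACTCAtttgaaaccc
Alcam, chr16:52470436-52470442: atggtacttaTGACTCAtgagcatgaa
Alcam, chr16:52418700-52418706: gatgtcaggaTGAGTCAgcacaaacac
The region near the internal start site is shown since it lies within 1 kb of an annotated transcript start. Alcam lies on the minus strand, so the coding sense of its exon runs against the stretch as printed.
Alcam, chr16:52295547-52295846: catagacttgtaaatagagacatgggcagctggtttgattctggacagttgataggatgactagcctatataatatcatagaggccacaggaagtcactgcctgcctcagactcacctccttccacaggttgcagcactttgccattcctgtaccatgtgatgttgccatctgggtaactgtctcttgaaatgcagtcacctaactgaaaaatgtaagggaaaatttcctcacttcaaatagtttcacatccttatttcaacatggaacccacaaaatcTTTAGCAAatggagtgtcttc

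The other members of this superfamily changed less. Pecam1, which encodes the CD31 adhesion protein of platelets, leukocytes and endothelium, had 1 region, an intronic one that fell from 7.48 to 6.30 (-1.18, interval -1.44 to -0.92). Esam, an endothelial and platelet junction protein, had regions with 0.69 (6.99 to 7.68) and 0.79 (6.24 to 7.03), both outside the gene and nearer to Msantd2 and Siae. F11r, which encodes the junctional protein JAM-A, had a downstream region with 0.78 (6.38 to 7.16). Jam3 had a region with 0.86 (5.87 to 6.73) and another with -1.09 (6.82 to 5.73) in the same intron, separated by 1036 bp. The rises at Esam, F11r and Jam3 all turn when the overall median is subtracted. Icam1, Icam2 and Vcam1, the ligands of β2 and α4 integrins, had no region inside the window.

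The cadherins gave 1 region each way. Cdh1, which encodes E-cadherin, the adhesion molecule of epithelia, had an intronic region 8.93 kb into the gene that rose from 3.65 to 6.59 (2.94, interval 2.36 to 3.56). Cdh17, an intestinal and liver cadherin, had the largest fall of all members. Its region lay 23.3 kb beyond the gene and fell from 5.11 to 1.44, a listed difference of -3.67 that rests on about 77 reads in WT and 6 in dKO (interval -5.17 to -2.49). Of the member regions it was the one closest to the edge of the 25 kb window. Cdh2 had no listed region.

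The Cdh17 region is shown as the one with the largest fall, and it holds 1 C/EBP string.
Cdh17, chr4:11841244-11841543: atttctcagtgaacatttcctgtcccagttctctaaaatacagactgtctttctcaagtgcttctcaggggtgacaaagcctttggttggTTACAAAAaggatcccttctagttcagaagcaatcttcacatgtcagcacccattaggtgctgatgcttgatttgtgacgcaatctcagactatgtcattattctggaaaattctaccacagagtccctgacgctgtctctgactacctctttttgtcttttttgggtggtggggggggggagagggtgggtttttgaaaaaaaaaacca

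Cd34, the sialomucin of hematopoietic progenitors and endothelium, had both a promoter and an intronic region, each higher. The region over its start site (chr1:194938682-194939036) rose from 2.81 to 5.72, a change of 2.91 (interval 2.11 to 3.72) or 7.52-fold. It was the largest change of any region over a member's start site. The intronic region rose from 4.35 to 6.31 (1.96, interval 1.49 to 2.47). Cd44, the hyaluronan receptor, had no listed region. The stretch before the first transcribed base of Cd34 is shown because of this change.
Cd34, chr1:194938682-194938818: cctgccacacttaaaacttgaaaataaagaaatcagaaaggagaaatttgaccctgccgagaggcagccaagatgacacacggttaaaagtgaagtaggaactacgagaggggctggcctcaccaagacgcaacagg

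Cd47 encodes the integrin-associated protein that also binds SIRPα on phagocytes. Its 3 upstream regions lay where the annotation also places the gene Gm15518. The one at 17.0 kb rose by 1.80 (4.28 to 6.08), the one at 9.39 kb by 3.54 (1.54 to 5.08) and the one at 7.86 kb by 2.33 (2.38 to 4.71). The first intronic region rose by 0.99 (5.73 to 6.72). Farther into the gene, at 36.4 kb, a region with the much higher WT level of 8.14 fell to 7.48 (-0.66, interval -0.85 to -0.48). Thus the low-level upstream regions and the high-level intronic one moved in opposite directions. Cd9, a tetraspanin that associates with integrins, had 1 intronic region, which rose by 1.22 (5.68 to 6.90).

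The matches in the 3 upstream Cd47 regions that rose and in the intronic one that fell are shown. The upstream regions held 1 RUNX and 2 PU.1 strings, 1 in each, and the intronic region held 2 C/EBP strings.
Cd47, change 1.80, chr16:49783532-49783538: ctacccagtgTGTGGTTtccatctcaa
Cd47, change 3.54, chr16:49791090-49791097: gaaaaagataGAGGAAGTgataaaaagg
Cd47, change 2.33, chr16:49792646-49792653: gaagtgtaagGAGGAAGTggcttttaaa
Cd47, change -0.66, chr16:49836978-49836985: acagctctggTTACACAAtgaaggctga
Cd47, change -0.66, chr16:49837001-49837008: gctgaacaagTTGGGCAAacttctgttc

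**Figure D3:**
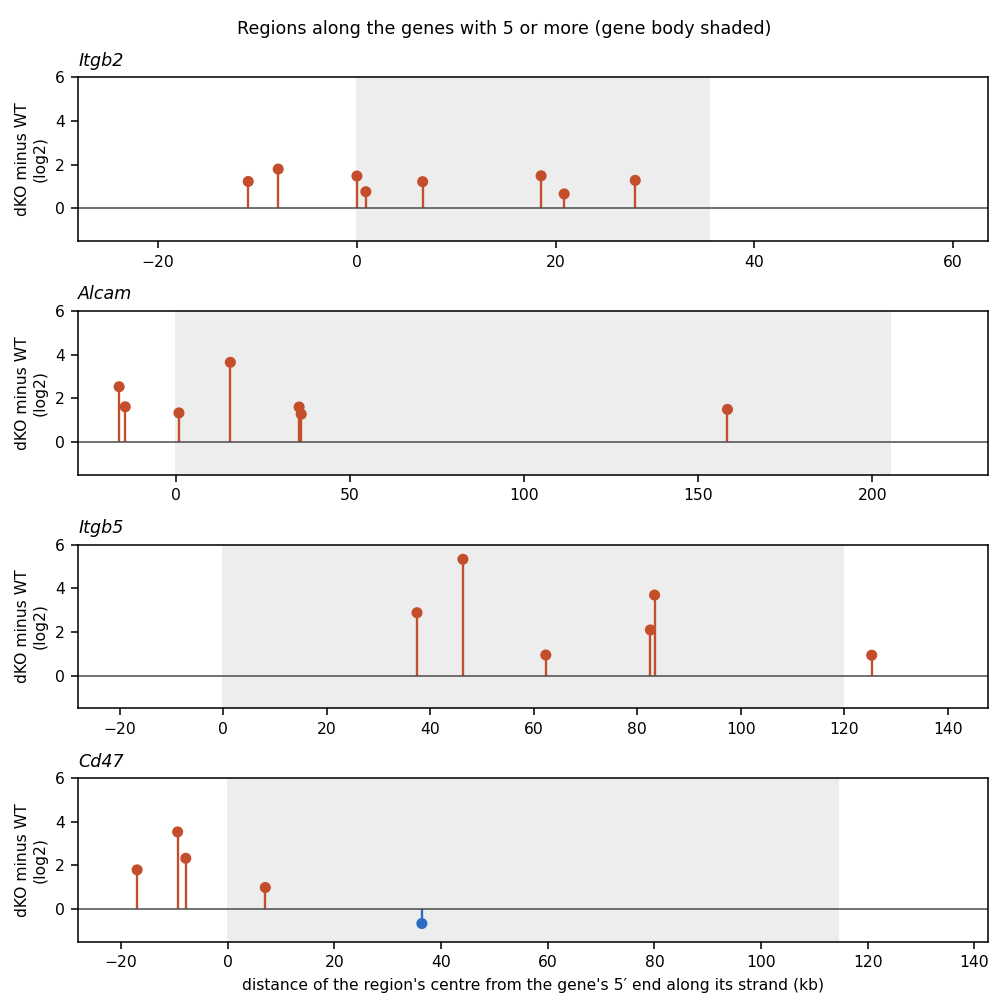
Regions along Itgb2, Alcam, Itgb5 and Cd47, the members with 5 or more. The x axis is the distance of the centre of a region from the 5′ end of the gene (kb, along its strand, gene body shaded) and the height is the change (dKO minus WT, log2). Itgb2 regions stay between 0.66 and 1.80, Itgb5 reaches 5.33 inside the gene, and Cd47 has its 1 lower region at 36.4 kb.

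The linkers between integrin tails and actin had 3 higher regions and 1 lower region. Tln1, which encodes talin 1, the activator of integrins, had an intronic region 2.21 kb into the gene that rose by 0.84 (6.54 to 7.38). Vcl, which encodes vinculin, had a region 17.5 kb upstream that fell from 5.74 to 4.56 (-1.18), a region that contains a whole coding exon of 123 bp and rose from 2.87 to 5.02 (2.15), and one at the end of the gene, over Ap3m1, that rose by 0.88. The changes of 0.84 and 0.88 turn on subtraction of the overall median. Fermt3, which encodes kindlin 3, the hematopoietic kindlin, had no listed region.

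**Figure D4:**
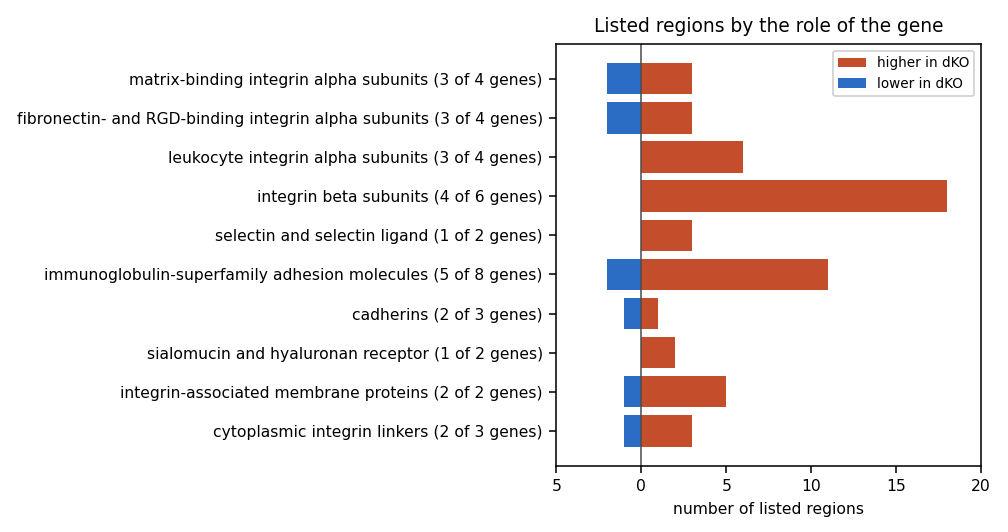
Number of listed regions higher (red, to the right) and lower (blue, to the left) in dKO for each role, with the number of genes that have regions. The β subunits have 18 higher and 0 lower regions, while the 2 groups of matrix- and fibronectin-binding α subunits have 3 higher and 2 lower regions each. The share in those 2 groups is near the 60.3% of all listed regions that were higher. Of the 55 higher regions 11 turn when the median of all listed regions is subtracted.

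Beyond the window limit, between 25 and 50 kb from the gene body, lay a further 20 regions, 15 of them higher and 5 lower. The lower ones were 3 at Cd47 (-1.30, -1.64 and -1.87) and 1 each at Itgb3 (-2.29, from 5.61 to 3.32) and Jam3 (-1.05). At Cd47 another region rose by 1.10. The largest rises there were 3.12 at Itga6 (3.35 to 6.47) and 2.75 at Vcl (3.16 to 5.91). Of the members with no region inside the window, Icam1, Icam2, Vcam1 and Cd44 had regions in this outer zone, all higher. With 50 kb on each side the β subunits were therefore no longer higher throughout.

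By the position of their centres, 17 regions lay upstream of the member (16 higher), 28 in its introns (25 higher), 3 in coding exons (3 higher), 6 in exons annotated as untranslated (5 higher) and 10 downstream (6 higher). Downstream regions thus included 4 of the 9 lower ones, but with 6 of 10 higher they were near the 60.3% of all listed regions. For places other than coding exons, shares over all listed regions were not computed. A coding exon lay at the centre of 4.69% of the member regions and of 2.82% of all listed regions, and of the latter 52.5% were higher. Within 1 kb of the start of any gene lay 13 of the 64 regions (20.3%), beside 19.1% of all listed regions. Of these, 76.9% of the member regions and 57.1% of all listed regions were higher. For 42 regions the nearest start site of any gene was that of the member. For the other 22 it was another gene, and 18 of these were higher. The width of the regions had a median of 400 bp and their GC content a median of 51.0%, where all listed regions had 400 bp and 50%.

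The 4 consensus strings were counted in the central 200 bp of every region. A C/EBP string lay in 4 of the 9 lower member regions (Cd47, Cdh17, Jam3 and Vcl) and in 10 of the 55 higher ones (18.2%). Over the whole table it was found in 40.7% of regions that were lower and 20.2% of those that were higher. An AP-1 string lay in 13 of the 55 higher member regions (23.6%) and in none of the 9 lower ones, and the shares over all listed regions were 26.6% and 4.65%. PU.1 strings lay in 5 higher member regions (9.09%) and in no lower one, with 13.0% and 3.37% over all listed regions. RUNX strings lay in 7 higher regions (12.7%) and 1 lower region, with 13.7% and 9.02% over all listed regions. At 24 of the 55 higher and 4 of the 9 lower member regions none of the 4 strings was found, beside 45.4% of all listed regions.

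**Figure D5:**
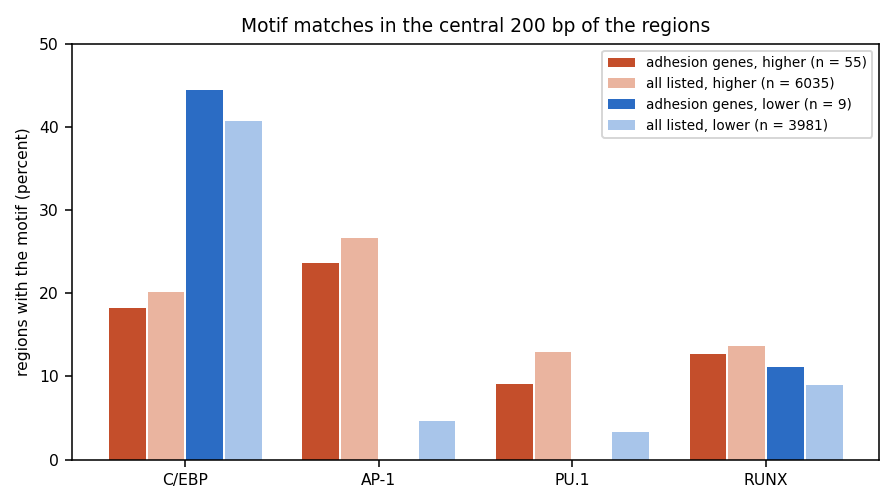
Percentage of regions with each consensus string in their central 200 bp, for the higher (n = 55) and lower (n = 9) regions at adhesion genes beside all higher (n = 6035) and all lower (n = 3981) listed regions. Bars for AP-1 and PU.1 in lower regions at adhesion genes are absent because none of the 9 held them. The C/EBP bars are taller for lower regions in both pairs, 44.4% and 40.7%.

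The lower regions with a C/EBP string at Vcl and Jam3 are shown as examples, with AP-1 at the Vcl exon region that rose.
Vcl, change -1.18, chr14:20911951-20911958: tttctgcctgTTAAGTAAccccttatct
Vcl, change -1.18, chr14:20911973-20911980: ttatctatatTTCTGCAAgtaaccccat
Jam3, change -1.09, chr9:27111032-27111039: gaaagccaccTTACAGAAaagtatttcc
Vcl, change 2.15, chr14:20985672-20985678: cagcaggagtTGACTCAccaggaacac

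Other genes of the adhesion pathway were counted by the same rule. Of 66 such genes 37 had 65 regions, with a median change of 1.26. Of those regions 54 were higher (83.1%, beside 60.3% of all listed regions) and 11 lower. One of these regions is the Itgax start region, which also lies in the window of Itgad. Genes of integrin activation and signalling had 34 higher and 6 lower regions at 17 of 25 genes. Fyb, which encodes the adaptor ADAP that links T cell and platelet receptors to integrin activation, had 9 regions, all higher, with changes from 0.93 to 2.63. Rap1a, a small GTPase that activates integrins, had rises of 2.99 and 3.33. Tln2, the second talin gene, went the other way to Tln1, with 3 lower regions. Of these, 2 fell by 2.10 and 3.65, and the third went from 6.56 to 0.43, which rests on about 3 reads over both dKO libraries (change -6.13, interval -8.41 to -4.56). Fermt2, which encodes kindlin 2, had a region that fell by 2.00. Skap2, an ADAP partner, had 1 region at 2.91 (interval 1.45 to 4.52, from about 5 reads over both WT libraries) and another at -2.59. The Rap1a and Fermt2 regions lay nearer to the start sites of other genes.

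Among the other integrin subunits 6 regions were higher and 4 lower. Itga2b, the αIIb chain of megakaryocytes and platelets, had regions with 3.59 (1.93 to 5.52) and 0.73. Itgb4 had 1 higher region (2.69) and 2 lower ones (-0.68 and -1.56). The list of other selectins, their ligands and the enzymes that make selectin ligands also held immunoglobulin-superfamily genes such as Jam2. This list had 8 regions at 7 of 13 genes, all higher. Among them were Jam2 (2.05), Fut4 (2.03 and 0.67), Fut7 (0.66) and St3gal4 (1.61). Fut4 and Fut7 encode fucosyltransferases of the sialyl Lewis X antigen. Tetraspanins and other adhesion genes, catenins among them, had 6 higher regions and 1 lower region at 7 of 20 genes. The largest rise, 4.10, was at Cd37 (2.11 to 6.21). A region at Sirpa, the receptor for CD47, rose by 1.63, and one at Adgre5, which encodes CD97, fell by 1.26. The regions at Cd37, Fut7, St3gal4 and Itgb4 lay nearer to the start sites of other genes, as did the Fut4 region with 2.03. The symbol Cd99 had no unique match in the annotation.

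Markers of cell types that can express these adhesion genes were counted as well. Mast cell and basophil markers had 10 higher and 3 lower regions at 7 of 11 genes, and of these the 6 regions at Gata2 were all higher. The largest Gata2 rise went from the lowest level, -0.15, to 5.12 and was at least 12.9-fold against the floor of 3 reads per library. The Kit region rose from 1.26, under that floor, to 4.52 (3.26, interval 2.03 to 5.03) and the Hdc region by 2.34. Regions at Cma1 (-1.12) and Mcpt8 (-0.59) and 1 region at Ms4a2 (-0.94) were lower. These lower regions and the one with the largest Gata2 rise lay nearer to the start sites of other genes. Macrophage markers had 5 higher and 0 lower regions at 3 of 6 genes (Csf1r, Mrc1 and Cd68). The study reports decreased Csf1r levels in dKO cells, so the rises at Csf1r do not stand for higher expression. Neutrophil markers had 9 higher regions and 1 lower region at 6 of 7 genes, although the study obtained no Ly6G-positive neutrophils from dKO cells. Megakaryocyte markers had 2 higher regions at Gp1bb and 2 lower ones at Vwf, and none at the other 7 genes of that list. Over the 4 marker lists 26 of 32 regions were higher (81.25%) and 6 lower, where 60.3% of all listed regions were higher. The members' share, 85.9%, was thus near those of the marker lists and of the other pathway genes (83.1%). The part of a change in cell composition in the members' result was not tested.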

How the data were processed

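WT and dKO cells were compared with 2 libraries each. Per the labels and the study's methods, the authors used PiGx for preprocessing, Bowtie 2 for alignment to mm10, MACS2 for peaks and DiffBind 2.14.0 for the comparison. The normalisation, duplicate handling and Tn5 offset are not given in the sources used here. Duplicates, if kept, would raise levels of amplified regions. The authors' deposited table gives log2 group means, which were used as they stand. Its columns for fold change, p-value and FDR hold the authors' own comparison and were not used. Both deposited files were identical (2 files, 1 distinct table), so dKO-LAP* was not analysed here.

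Changes were computed as the log2 mean in dKO minus that in WT, without a pseudocount. Nothing in the labels says that the replicates were separate cultures. The lowest level, -0.15, was taken as 1 read per library: of the values up to 3 normalised reads, 93.6% in WT and 100% in dKO lay on whole-read steps. The floor of 3 reads per library was a level of 1.43. Motifs were searched in GRCm38.p6 sequence with pysam 0.24.0, and RefSeq promoters were held for 24 members, of which 4 overlapped a region (Cd34, Itgax, Itga1 and Alcam). The assignment of regions to windows was tested on simulated data.

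The members and gene lists were chosen with earlier results of these data known. By rule, all members are accounted for, and values are given for every member with regions. Sequences were printed for up to 8 regions, those within 1 kb of a member start with the largest absolute change and the largest rise and fall, none on chromosome 18. Motif windows and examples from the other gene lists were chosen after their values were seen. Alternatives were other windows, assignments, level filters and centring, and the whole region in place of its central 200 bp for motifs.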

Additional observations from a re-analysis of the deposited data

How the results depend on the processing

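In all 11 alternatives more regions at adhesion genes were higher than lower, with shares of 68.8% to 89.5%. As 60.3% of all listed regions were higher, a majority of higher regions is not particular to the members. The alternatives are overlapping sets of the same regions, and the share over all listed regions is not given for each. Over the 10 alternatives in which members were counted, 19 to 30 members had regions. Counts moved by more than 1.5 times in the following cases. With the gene body alone 34 regions were higher and 4 lower. With 50 kb on each side 14 were lower, and 5 were lower when the nearest start site of any gene had to be that of the member. After subtraction of the median of all listed regions 20 were lower and the median change was 0.36. Chosen after the data were seen, leaving out chromosomes 10 and 16 gave 30 higher regions of 38. Leaving out the members with 5 or more regions removed the same 26 regions and so also gave 30, and these count as 1 alternative in substance. Searching whole regions gave PU.1 strings in 9 and RUNX strings in 12 of the 55 higher regions. The other alternatives changed no count by more than 1.5 times. No paired analysis was possible because only means of each group are listed. For the same reason no replicate could be left out. Depth limits the 4 regions in which the lower group was at or under the floor, at Itgb5, Itgav, Alcam and Cdh17, and regions of Tln2, Skap2, Gata2 and Kit among the other genes. No counting interval included 0 (0 of 64), but such intervals hold no replicate error. Only regions that passed the authors' cutoff for the corrected P are listed. That selection on the same reads already favours intervals clear of 0, so this count is no separate check of the changes.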
